A study of Rattus norvegicus with 8 samples.

Results

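The miR-200 family of microRNAs was described in small RNA libraries from rat kidneys. Its members were taken as the rows of the count table named for miR-200a, miR-200b, miR-200c, miR-141 or miR-429, with any arm, and 12 of the 620 rows carried such a name. Of these, 5 rows were the plain names and 7 were the star names of the opposite arm. The libraries came from male Big Blue transgenic Fisher 344 rats, a strain that carries a reporter for mutation assays and that all 8 animals shared. The 4 rats of the AA group were given aristolochic acid, a plant nephrotoxin, as its sodium salt by gavage at 10 mg/kg body weight on 5 days of each week for 12 weeks, starting at an age of 6 weeks. The 4 rats of the CTL group were dosed alike with saline of 0.9%, and kidneys were taken 1 day after the last treatment. RNA came from kidney tissue that was not sorted into cell types, so that fewer cells of a type and less RNA per cell cannot be told apart in these values.

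MicroRNAs of this family are best known from epithelial cells, in which they repress the transcription factors ZEB1 and ZEB2 and so help to maintain E-cadherin and the epithelial state. ZEB1 and ZEB2 in turn repress the transcripts from which the family is made, and TGF-beta, a driver of fibrosis, tips this loop towards the mesenchymal state in cultured cells. In the kidney the family is known from tubule epithelium. Its hairpins lie in a pair of genomic clusters, each transcribed as a common primary transcript, and its mature arms carry 2 seeds, the bases 2 to 8 by which a microRNA pairs with its targets. Members of the same cluster can therefore have different seeds, and members of different clusters can share one.

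The sequences were taken from RefSeq on rat assembly GRCr8, and all 5 hairpins were matched by symbol. They are shown because cluster and seed divide the members differently. Capitals mark the only place in each hairpin that holds the 7 letters AAUACUG or AACACUG, which are the seeds of miR-200c-3p and miR-141-3p. In the first cluster, Mir200b lay at chr5:171931495-171931589, Mir200a at chr5:171930717-171930805 and Mir429 at chr5:171929682-171929766, all on the minus strand and within 1908 bases.

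Mir200b: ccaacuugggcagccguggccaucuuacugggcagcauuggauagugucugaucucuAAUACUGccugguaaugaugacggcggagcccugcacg

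Mir200a: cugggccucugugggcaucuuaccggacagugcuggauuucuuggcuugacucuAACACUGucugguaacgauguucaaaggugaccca

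Mir429: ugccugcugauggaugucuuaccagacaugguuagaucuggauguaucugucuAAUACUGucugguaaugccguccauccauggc

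In the second cluster, Mir200c lay at chr4:159209965-159210033 and Mir141 at chr4:159209525-159209618, both on the minus strand and within 509 bases.

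Mir200c: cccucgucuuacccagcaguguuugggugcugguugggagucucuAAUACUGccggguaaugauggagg

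Mir141: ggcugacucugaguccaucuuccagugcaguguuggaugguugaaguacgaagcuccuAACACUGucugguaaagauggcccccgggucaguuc

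By these letters, miR-200b, miR-429 and miR-200c shared one seed and miR-200a and miR-141 the other. Read in the direction of the hairpin only, each set of 7 letters was found in 0.955% of the 419 rat hairpins of the RefSeq table. Over the 21 bases that start 1 base before the capitals, Mir200c and Mir141 differed at 4 positions, U4C, C9U, G11U and U17A, where position 1 is the 5′ base and the base of Mir200c comes first. Across the clusters the likeness was closer. Mir200b and Mir200c differed in this stretch only by U11G, and Mir200a and Mir141 only by C17A, with the base of the first-named hairpin first. Reads with a sequencing error at that base could be counted on the other member, since the number of mismatches allowed for known miRNAs is not given in the sources used here.

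The opposite arms of 4 hairpins are shown with bases 2 to 8 in capitals, because these arms are the star rows of the table.

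rno-miR-200b-5p: cAUCUUACugggcagcauugga

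rno-miR-200a-5p: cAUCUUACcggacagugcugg

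rno-miR-200c-5p: cGUCUUACccagcaguguuug

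rno-miR-141-5p: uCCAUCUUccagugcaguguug

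The star arms of miR-200b and miR-200a shared bases 2 to 8, that of miR-200c differed from miR-200a in this stretch by G2A, and that of miR-141 had bases of its own. In the older names of the table, the plain name stands for the 3p arm and the star name for the 5p arm in this family.

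The libraries held 13412373 to 15616670 reads on known miRNAs. Each library thus held more of them than the paper states for all 8 samples together, a difference that the sources used here do not explain. One label field gives the tissue as liver, whereas the other labels and the methods give the kidney. miR-122, the defining miRNA of hepatocytes, had 9 to 707 reads in 7 libraries and 9634 in the second AA library. In CPM (reads scaled to a common library size), 6 miRNAs of kidney tubules summed to 163921 to 235714 in the CTL libraries and 126468 to 180763 in the AA libraries. Most of this sum was miR-30a, with means of 125637 CPM in the CTL group and 111454 CPM in the AA group, while miR-204 was at 14.9 to 39.2 CPM. Whether these 6 tell kidney from liver was not tested. The libraries numbered 4 stood apart for the family. All 5 plain-name members were lowest in the fourth library of each group. With both of them left out, none of the family was called either. Their likeness was not confined to the family. Across all tested miRNAs, their deviations from the group means correlated at 0.35, the highest value among same-numbered libraries.

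Over the 8 libraries the family took 1028716 reads, 98.9% of them on the 5 plain names, and in each library it made up between 0.602% and 1.15% of the reads. miR-200b ranked 26 and miR-200a 28 among all 620 rows by mean reads, followed by miR-429 at 43, miR-200c at 56 and miR-141 at 68. CPM values are relative to library sizes scaled by the TMM method of edgeR. Mature miRNAs have nearly the same length, so that no length scaling was used, but the adaptor ligation of the library kit favours some ends over others and can move the order between miRNAs. miR-200b was above miR-200a in 8 of 8 libraries, yet the ranges of the 2 miRNAs over libraries overlapped in both groups. miR-200a and miR-429 had ranges apart in both groups. miR-429 and miR-200c had ranges apart in the CTL group but not in the AA group, and miR-200c and miR-141 overlapped in both, although miR-200c was higher in 8 of 8 libraries.

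**Figure D1:**
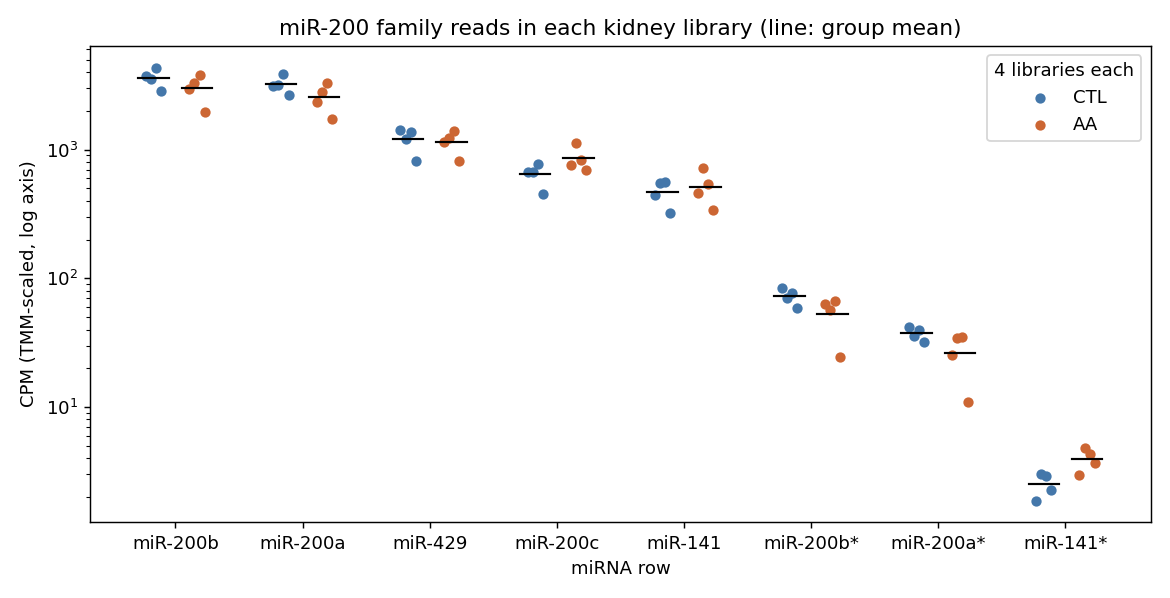
CPM (log axis) of the 8 family rows that reached the read filter, with 1 point for each of the 4 CTL and 4 AA libraries and a line at the group mean. The 5 plain-name rows lie between 324 and 4336 CPM and the star rows between 1.87 and 84.2 CPM, and the groups overlap for every row.

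None of the family changed past the threshold between the AA and CTL groups. The test was the quasi-likelihood test of edgeR over the 367 miRNAs that had 10 reads or more in 4 or more libraries, with Benjamini-Hochberg adjustment over all of them and a threshold of 0.05. Of all tested miRNAs, 16.3% were called, with 10.4% higher and 5.99% lower in the AA group, or 38 and 22 miRNAs (54 and 14 with total counts as the scaling). Of the 12 family rows, 8 were tested and 0 of these 8 were called by edgeR, and 0 of 8 by DESeq2. By edgeR, 1 of the 8 had an unadjusted p under 0.05, beside 110 of all 367 tested miRNAs. The adjusted p-values of the family lay between 0.13 and 0.85. No family row had AA libraries that all lay on one side of all CTL libraries in CPM, whereas 24.3% of all tested miRNAs did. The median log2 fold change was -0.17 over the 8 family rows and 0.06 over all 367.

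In the first cluster, the plain-name members were on average lower in the AA group, without passing the threshold. rno-miR-200b was at 3703, 3558, 4336 and 2849 CPM in the CTL libraries and 2933, 3263, 3813 and 1956 CPM in the AA libraries. The AA values reached from below the lowest to above the second highest CTL value. In log2 this came to -0.27 ± 0.22 for AA against CTL, where ± is the standard error of the fit (edgeR adjusted p = 0.40), and to -0.07 with total counts as the scaling. rno-miR-200a, which carries the other seed, was at 3109, 3195, 3890 and 2670 CPM in the CTL libraries and 2353, 2796, 3286 and 1722 CPM in the AA libraries. The third library was the highest of each group for miR-200a and for miR-200b. In log2 miR-200a differed by -0.34 ± 0.21 (edgeR adjusted p = 0.29), and by -0.14 with total counts. rno-miR-429 was at 1410, 1218, 1365 and 819 CPM in the CTL libraries and 1154, 1223, 1404 and 815 CPM in the AA libraries. These ranges nearly coincided, and the log2 difference was -0.07 ± 0.22 (edgeR adjusted p = 0.85). Its sign depended on the scaling, at 0.14 with total counts, a setting that moved the median of all tested miRNAs from 0.06 to 0.27. It was also 0.016 without the first CTL library.

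In the second cluster, the mean levels were higher in the AA group, and none passed the threshold. rno-miR-200c was at 664, 673, 778 and 452 CPM in the CTL libraries and 764, 1134, 827 and 700 CPM in the AA libraries. Of the 4 AA values, only that of the first and the fourth library lay within the CTL range, and the second was the highest of all. In log2 miR-200c differed by 0.42 ± 0.21 (edgeR adjusted p = 0.21), and by 0.19 without the second AA library. Over the 16 other fits described below, its difference ranged from 0.19 to 0.63. rno-miR-141 was at 441, 547, 564 and 324 CPM in the CTL libraries and 460, 716, 541 and 341 CPM in the AA libraries. Again the second AA library was the highest. In log2 miR-141 differed by 0.13 ± 0.25 (edgeR adjusted p = 0.73) and by 0.35 with total counts, and its sign turned to -0.14 without the second AA library and to -0.01 without the fourth CTL library.

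The second AA library also stood apart in miR-205, an epithelial miRNA that represses ZEB1 and ZEB2 as well and is abundant in stratified epithelium and urothelium. miR-205 was at 9.82, 53.9, 12.7 and 12.7 CPM in the CTL libraries and 24.0, 443, 43.1 and 43.2 CPM in the AA libraries. The value of the second AA library was the highest of the 8, as for miR-200c and miR-141, and the second CTL library was the highest of its group. Other epithelial miRNAs, miR-182, miR-183, miR-96 and miR-203, were not highest of the 8 in the second AA library. There miR-182 was at 2748 CPM, the lowest of the 8, and miR-183 at 896 CPM, the lowest of the AA group. miR-96 at 67.8 CPM and miR-203 at 1132 CPM lay within the range of the other libraries. The second AA library also stood apart in a miRNA that is not epithelial in this list. It held 523 CPM of miR-122, the miRNA of hepatocytes, against 0.696 to 53.0 CPM in the other libraries. In log2 miR-205 differed by 2.63 ± 0.96 (edgeR adjusted p = 0.097), and by 0.63 without the second AA library. The part of such epithelium in the levels of miR-200c and miR-141 was not tested.

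**Figure D2:**
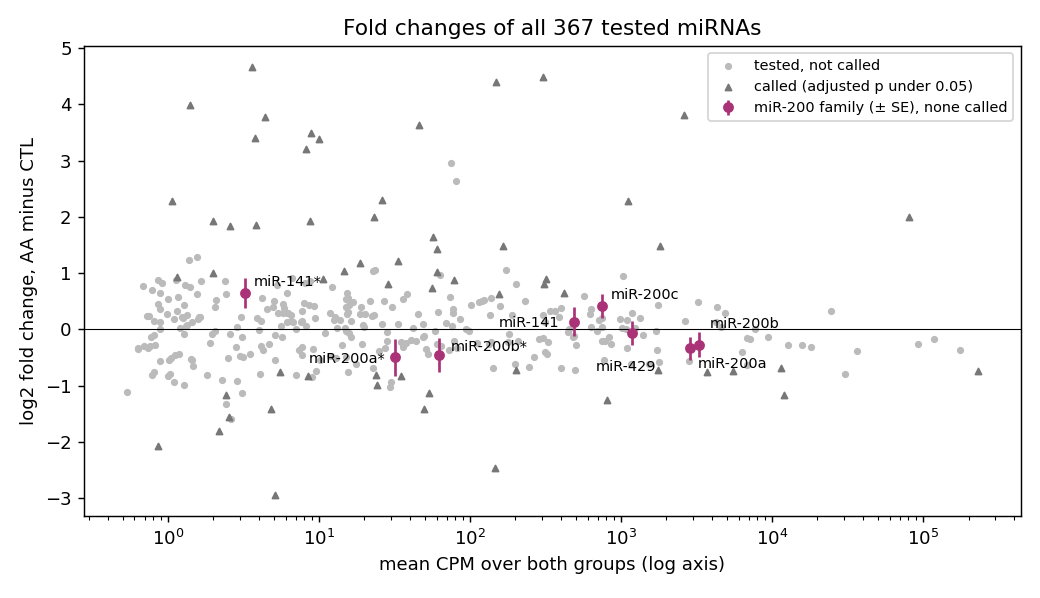
Log2 fold change of AA minus CTL against mean CPM (log axis) for the 367 tested miRNAs, with called miRNAs as darker triangles and the 8 family rows as larger points with their standard error. The family lies between -0.50 and 0.64 and none of its rows is called, while miR-200c and miR-141 lie above 0 and miR-200a, miR-200b and miR-429 below it.

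The clusters were then compared within each library, where the ratio of reads does not depend on the scaling between libraries. Summed over plain names, the cluster of miR-200c and miR-141 made up 11.8%, 13.3%, 12.3% and 10.9% of the family's level in the CTL libraries and 16.0%, 20.3%, 13.9% and 18.8% in the AA libraries. Every AA library was above every CTL library. The ratio of the first cluster to the second was 7.32 ± 0.680 in the CTL group and 4.93 ± 1.02 in the AA group (SD, n = 4 each). No test was made on these sums over members.

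The same shift was tested on single miRNAs with the same seed. The ratio of miR-200b to miR-200c was 5.58, 5.29, 5.57 and 6.30 in the CTL libraries and 3.84, 2.88, 4.61 and 2.80 in the AA libraries. All 4 AA values were below all 4 CTL values. The difference in mean log2 ratio was -0.72 (standard error 0.18, exact permutation test over the 8 libraries, two-sided, p = 0.0286, which is the smallest p that 4 against 4 can give). It was -0.63 without the second AA library and -0.61 without the fourth, and leaving out any 1 CTL library gave -0.75 to -0.67 with an exact p of 0.0571 and still no overlap. With adjustment over the 4 ratios tested, p was 0.0571 in the exact permutation test. A shift of this kind was not rare in these libraries. Of the 366 other tested miRNAs, 19.4% had a ratio to miR-200b, and 28.7% a ratio to miR-200c, whose AA and CTL libraries did not overlap.

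Within a cluster, the members that differ in seed were set against each other. The ratio of miR-141 to miR-200c was 0.664, 0.814, 0.725 and 0.716 in the CTL libraries and 0.602, 0.631, 0.655 and 0.487 in the AA libraries. The groups did not overlap, although the lowest CTL and the highest AA value lay close together. The difference in mean log2 ratio was -0.30 (standard error 0.11, exact permutation test, two-sided, p = 0.0286, and 0.0571 adjusted over the 4 ratios). Without the fourth AA library it was -0.21, and without any 1 CTL library -0.35 to -0.25, each with an exact permutation p of 0.0571. The ratio of miR-200a to miR-200b was 0.839, 0.898, 0.897 and 0.937 in the CTL libraries and 0.802, 0.857, 0.862 and 0.880 in the AA libraries. These groups overlapped, and the difference in mean log2 ratio was -0.07 (standard error 0.04, exact permutation test, two-sided, p = 0.229).

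The last ratio held seed and cluster constant. For miR-429 to miR-200b it was 0.381, 0.342, 0.315 and 0.288 in the CTL libraries and 0.394, 0.375, 0.368 and 0.417 in the AA libraries. Of the CTL values, only that of the first library reached into the AA range. The difference in mean log2 ratio was 0.23 (standard error 0.10, exact permutation test, two-sided, p = 0.0857, and 0.114 adjusted over the 4 ratios). Without the first CTL library it was 0.30 (exact permutation p = 0.0286).

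**Figure D3:**
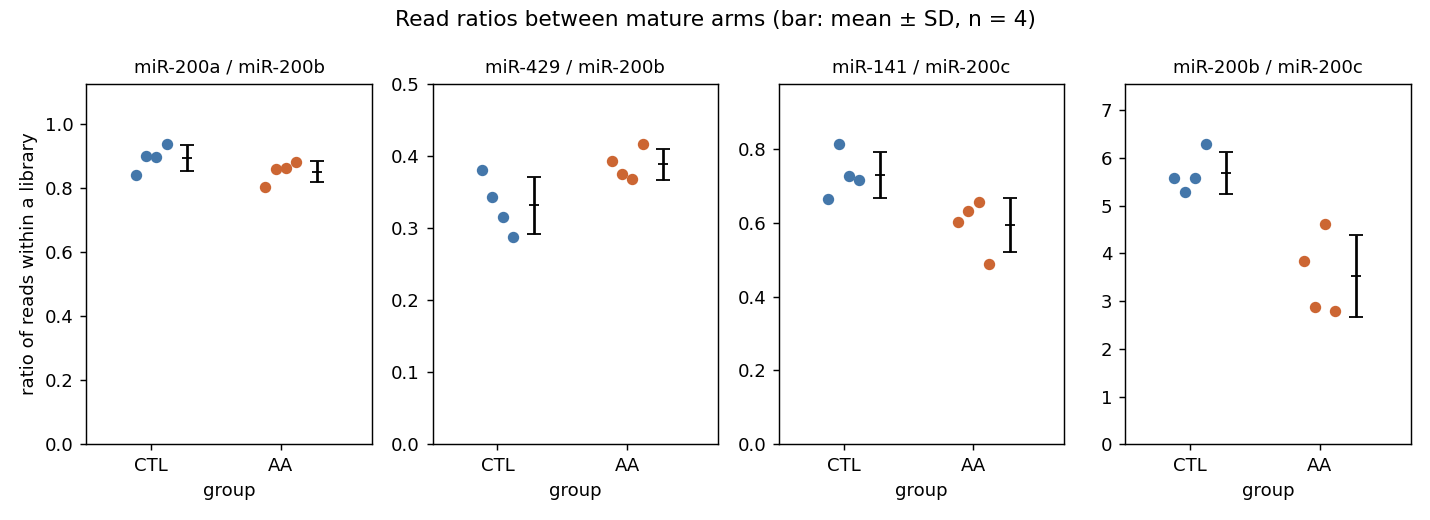
Ratios of reads between pairs of plain-name members within each library, from a baseline of 0, with 4 CTL and 4 AA points and the mean ± SD beside them. The groups do not overlap for miR-200b to miR-200c, at 5.29 to 6.30 against 2.80 to 4.61, nor for miR-141 to miR-200c, and they overlap for the other 2 ratios.

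Over the seeds, the ratio of the sums moved less, but each sum came mostly from the first cluster. In the CTL means, miR-200a held 3216 of 3685 CPM and miR-200b held 3612 of 5456 CPM. Each cluster holds members of both seeds, so that the ratio of the seeds also follows the ratios within a cluster given above. What each of these contributed to the ratio of the seeds was not tested. The level of the seed of miR-200b, miR-200c and miR-429 divided by that of miR-200a and miR-141 was 1.63, 1.46, 1.45 and 1.38 in the CTL libraries and 1.72, 1.60, 1.58 and 1.68 in the AA libraries. The first CTL library lay within the AA range. In mean log2 the seed ratio differed by 0.16 and the cluster ratio by -0.59, with no test on either sum.

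The star arms were rare in every library. miR-200b* was at 84.2, 70.7, 76.7 and 58.8 CPM in the CTL libraries and 63.5, 57.1, 66.5 and 24.6 CPM in the AA libraries, a log2 difference of -0.46 ± 0.30 (edgeR adjusted p = 0.32), or -0.26 with total counts. miR-200a* was at 41.8, 35.8, 39.9 and 32.3 CPM in the CTL libraries and 25.4, 34.4, 35.3 and 10.9 CPM in the AA libraries, a log2 difference of -0.50 ± 0.33 (edgeR adjusted p = 0.32), or -0.28 with total counts. For both, the fourth AA library was the lowest of the 8. miR-141* had 25, 41, 47 and 28 reads in the CTL libraries and 38, 89, 63 and 62 in the AA libraries, or 1.87 to 3.02 CPM and 2.94 to 4.83 CPM. Only the first AA library lay within the CTL range, and the log2 difference was 0.64 ± 0.26 (edgeR unadjusted p = 0.035, adjusted p = 0.13). The star arms of the first cluster were thus lower on average and that of the second higher, as for miR-200b and miR-200c, and none was called.

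The remaining 4 star rows did not reach the read filter. miR-200c* had 0 to 4 reads in the CTL libraries and 3 to 6 in the AA libraries. The other 3 rows are written in lower case in the table, as 61 of its 620 rows are, all of them star arms. The row rno-mir-429* had 1 to 5 reads in the CTL libraries and 2 to 3 in the AA libraries. The rows rno-mir-200b* and rno-mir-200a* stand beside rows of the same name in capitals and held 9 reads and 1 read over all 8 libraries. They were kept as rows of their own, and their sequences are not given in the table.

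The choice of arm was measured as the reads of the star arm among the reads of both arms of a hairpin. miR-200b* made up 2.22%, 1.95%, 1.74% and 2.02% of its hairpin in the CTL libraries and 2.12%, 1.72%, 1.71% and 1.24% in the AA libraries. miR-200a* made up 1.33%, 1.11%, 1.01% and 1.19% in the CTL libraries and 1.07%, 1.22%, 1.06% and 0.629% in the AA libraries. In the fourth AA library the 95% Wilson intervals, 1.13% to 1.37% for miR-200b* and 0.545% to 0.726% for miR-200a*, lay below those of the other 7 libraries. miR-141* made up 0.424%, 0.548%, 0.514% and 0.700% in the CTL libraries and 0.635%, 0.670%, 0.794% and 1.07% in the AA libraries, with overlap between the groups. These intervals hold counting error alone, and PCR copies of 1 molecule count in them as separate reads.

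The arm ratio was tested with limma over the 154 hairpins that have both arms in the table and enough reads. Of these 154 hairpins, 0% were called at an adjusted p under 0.05, with 16 at an unadjusted p under 0.05, and 9.09% had AA and CTL libraries that did not overlap. None of the 5 family hairpins was called or free of overlap. The log2 arm ratio, star over plain name, differed between AA and CTL by -0.25 in miR-200b (standard error 0.23, adjusted p = 0.70 from limma), by -0.26 in miR-200a (standard error 0.26, adjusted p = 0.71) and by 0.52 in miR-141 (standard error 0.26, adjusted p = 0.38). For miR-429 the difference was -0.30 (standard error 0.32, adjusted p = 0.73 from limma). The difference of 1.41 in miR-200c (standard error 0.55, adjusted p = 0.38 from limma) rests on at most 6 star reads in a library and was 0.92 with a pseudocount of 1 read. Single libraries set much of the smaller values. Without the fourth AA library the difference was -0.10 in miR-200b and -0.054 in miR-200a. That of miR-429 was -0.040 without the second and -0.48 without the first CTL library, and -0.19 without the third AA library.

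**Figure D4:**
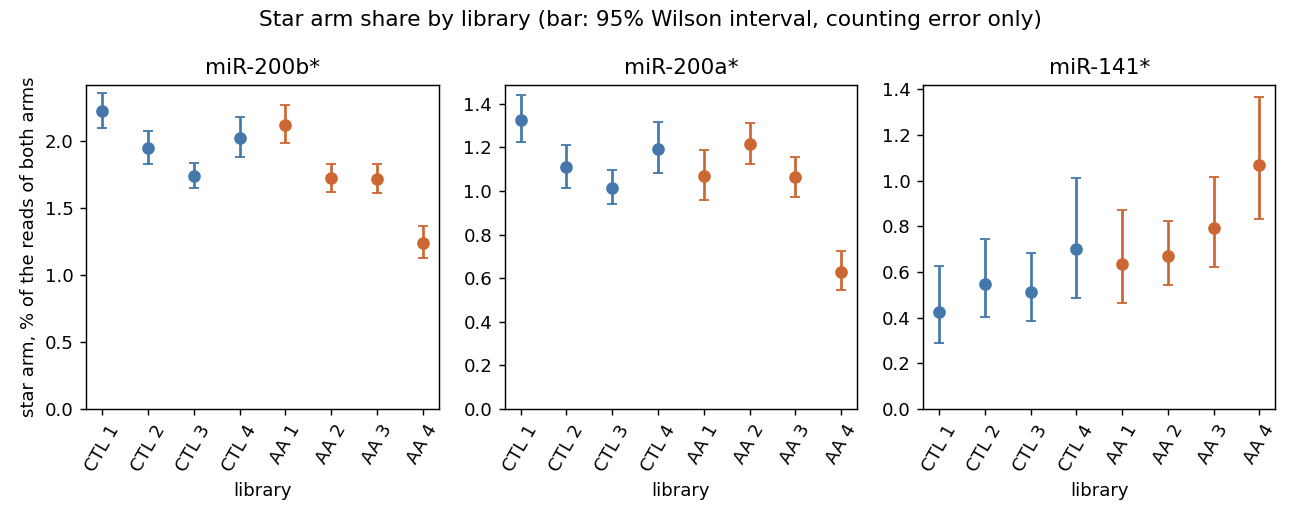
Share of the star arm in the reads of both arms of its hairpin (%), for miR-200b*, miR-200a* and miR-141* in each library, with 95% Wilson intervals for counting error. The fourth AA library is lowest for miR-200b* and miR-200a*, at 1.24% and 0.629%, and highest for miR-141*, at 1.07%.

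How far the members went together from library to library was measured as the SD over the 8 libraries of their log2 ratio, which is small when the ratio hardly moves. miR-200a followed miR-200b with an SD of 0.069, smaller than that of any tested miRNA outside the family, where the median was 0.58. miR-429 followed miR-200b with an SD of 0.18, and miR-200c, from the other cluster but with the same seed, with an SD of 0.45, or 0.26 when the deviations were taken from the mean of each group. miR-141 followed its neighbour miR-200c with an SD of 0.22, or 0.16 within groups. Placed by SD over the 8 libraries among the tested miRNAs outside the family, miR-429 ranked 9 and miR-200c 105 for miR-200b. In the same way miR-141 ranked 10 for miR-200c. These ranks include the difference between the groups. With deviations taken from the mean of each group, miR-429 ranked 4 and miR-200c 38 for miR-200b, and miR-141 ranked 4 for miR-200c. The nearest miRNAs outside the family were miR-664, miR-101a and miR-99a for miR-200b, with SDs of 0.097, 0.12 and 0.13, and miR-301a, miR-106b and miR-29b for miR-200c, with SDs of 0.17, 0.18 and 0.18. None of these 6 was called between the groups (adjusted p = 0.34 to 0.53 from edgeR). These values describe the same 8 libraries throughout, and they were not tested.

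Other miRNAs linked to the epithelial to mesenchymal transition or to TGF-beta were read from a list of 8, all of them tested. Of these 8, 1 was higher and 0 were lower in the AA group by the edgeR test, beside 10.4% and 5.99% of all tested miRNAs, and their median log2 fold change was -0.04. The one that rose was miR-21, which TGF-beta signalling induces, from 32392 ± 4536 CPM in the CTL group to 128596 ± 51187 CPM in the AA group (SD, n = 4 each), with a log2 difference of 1.99 ± 0.29 (edgeR adjusted p = 0.0012). Those not called were miR-205, miR-203, miR-192, miR-215 and the collagen-repressing miR-29a, miR-29b and miR-29c. miR-203, a miRNA of differentiating epithelium, differed by -0.61 ± 0.24 in log2 (edgeR adjusted p = 0.11), and miR-192 of the proximal tubule by -0.79 ± 0.39 (edgeR adjusted p = 0.20). The fourth CTL library held 74962 CPM of miR-192 and the other 7 held 14295 to 32806 CPM, and without it the difference was -0.24.

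Markers of the cell types that kidney tissue can hold were read beside the family. Over all tested miRNAs, 5.99% were lower and 10.4% higher. Of 6 tested kidney tubule miRNAs, 2 fell in the AA group, miR-204 with a log2 difference of -0.80 (edgeR adjusted p = 0.034) and miR-194 with one of -0.73 (edgeR adjusted p = 0.0499). Of 6 tested leukocyte miRNAs, miR-142-3p, miR-146b and miR-223 rose. Not called were miR-150 with a log2 difference of 0.58 (edgeR adjusted p = 0.062), miR-142-5p with 0.30 and miR-146a with -0.09. The summed level of all 6 was 2468 to 3557 CPM in the CTL libraries and 4259 to 8104 CPM in the AA libraries. Of 5 miRNAs of stroma and smooth muscle, miR-199a-3p rose, with a log2 difference of 0.65 (edgeR adjusted p = 0.033), and the 5 had summed levels of 177519 to 237849 CPM and 143529 to 184366 CPM. Nearly all of this sum was miR-143, at 198659 ± 26888 CPM in the CTL group and 154697 ± 19392 CPM in the AA group (SD, n = 4 each), with a log2 difference of -0.36. The log2 differences of the other 4 were positive, from 0.27 to 0.80, and the median over the list was 0.50. Several of these calls were lost when 1 library was left out. That of miR-204 was lost without CTL library 1, 2 or 4 or AA library 1 or 3 (adjusted p up to 0.084 from edgeR), and that of miR-194 without CTL library 1, 2 or 4 or AA library 2 or 3 (up to 0.11). miR-223 lost its call without CTL library 1, 2 or 3 or AA library 1 or 4 (up to 0.086), and miR-199a-3p when any 1 library but AA library 1 was left out (up to 0.14). The 5 other epithelial miRNAs, miR-182, miR-183, miR-96, miR-203 and miR-205, the 2 of endothelium and the 2 of red blood cells had no calls. Their summed levels were 5382 to 8639 CPM and 5286 to 9965 CPM for the epithelial list, 8118 to 10935 CPM and 6178 to 9455 CPM for endothelium, and 499 to 798 CPM and 158 to 564 CPM for red blood cells. No marker found in the table was at 0 in all libraries, while miR-155 and miR-486 were not analysed here. The part of the cell mixture in the ratio of the clusters was not tested.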

How the data were processed

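Small RNA of 8 rat kidneys, 4 AA and 4 CTL, was read on a Genome Analyzer II. The authors deposited raw counts of reads for each known miRNA, which they obtained with miRanalyzer and Bowtie against miRBase version 17. No normalization is contained in the deposited counts, although the labels also name DESeq among the tools. Groups and numbers were taken from the sample titles, which are the column names.

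Differences were tested with edgeR 4.0.16 (TMM, glmQLFit and glmQLFTest) in R 4.3.3 on miRNAs that had 10 reads or more in 4 or more libraries. The standard error is the size of the log2 fold change divided by the square root of F. Arm ratios were tested with limma 3.58.1 on log2 ratios with a pseudocount of 0.5 reads, for hairpins with at least 10 reads over both arms in every library and at least 10 reads of the rarer arm in all. Ratios between members were tested by exact permutation (scipy 1.17.1), and the SD of log2 ratios used CPM with a prior count of 2. Alternatives were DESeq2 1.42.0, other scalings and filters, counts less the 3 most abundant miRNAs, the 6 libraries numbered 1 to 3, a replicate block and each library left out. The edgeR and limma fits were tested on simulated data with log2 changes of 2, larger than any difference of the family. The edgeR fit recovered 96.5% of 200 changed miRNAs with 8 false calls. The limma fit recovered 73.3% of 30 changed hairpins with 1 false call. Recovery of smaller changes was not simulated. At this depth a row of 10 reads is limited by counting error, and the abundant members by the spread between rats. Each library came from 1 rat.

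The members, lists and tests were chosen with earlier results of these data known. All rows of the family were named. For each cluster, the 3 other miRNAs with the smallest SD of the log2 ratio to its most abundant member were named, with the called members of the lists and miR-122 for the tissue. The values given for uncalled list members and the libraries singled out were chosen after they were seen.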

Additional observations from a re-analysis of the deposited data

How the results depend on the processing

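No family row was called in any of the 16 other fits, among them total counts, DESeq2 and the fit without a read filter. The sign turned for miR-429 with total counts (0.14) and without the first CTL library (0.016), and for miR-141 without the second AA library (-0.14) and without the fourth CTL library (-0.01). With 1 library left out, miR-429 ranged from -0.21 to 0.016 and miR-141 from -0.14 to 0.21. The other 6 tested rows kept their sign. Over all miRNAs, 60 were called, and 35 to 51 when 1 library was left out, with 35 without the second and 37 without the first CTL library. The share of higher calls rose with total counts, which called 54 higher and 14 lower against 38 and 22. For the arm ratios, 3 of 112 hairpins were called when each arm needed at least 10 reads in at least 4 libraries, and 0 to 2 with 1 library left out, the 2 without the first AA library. Those called were not of the family.

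With 1 library left out, the difference in log2 ratio was -0.85 to -0.61 for miR-200b to miR-200c, -0.35 to -0.21 for miR-141 to miR-200c and 0.17 to 0.30 for miR-429 to miR-200b, the last passing the threshold only without the first CTL library. Each of these tests compared 4 with 3 libraries, and the exact p was 0.0286 or 0.0571 for the ratios to miR-200c. With the replicate block, the paired differences were -0.72 and -0.30 for the same ratios, with p = 0.125, the smallest that an exact test of 4 pairs can give. The numbers in the titles were not taken as pairs, because no label ties them to a batch or litter and 1 of the 4 correlations between deviations of same-numbered libraries, at 0.05, 0.20, 0.14 and 0.35 across miRNAs, was not over 0.1. As a hint from the data, 6 of the 8 libraries correlated best with their own number. With the block, 78 miRNAs and 0 family rows were called by edgeR. Leaving out each library for the named list miRNAs and for the cluster and seed sums was chosen after seeing the data, and for the sums gave -0.71 to -0.49 and 0.12 to 0.20 in mean log2.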
